A study of Mus musculus with 16 samples.

Results

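The 10 genes described here are regulators of the cell cycle and of the p53 pathway: the cyclins Ccnd1, Ccnd2, Ccnd3 and Ccna2, the kinase Cdk4, the inhibitors Cdkn1a and Cdkn2a, the transcription factors Myc and Trp53, and the p53 ligase Mdm2. They were chosen by name from 21938 protein-coding genes of the mouse annotation GENCODE vM21, by no rule on their values but with earlier results of these data known. For each gene, the ChIP-seq peaks within 3 kb of any transcription start site (TSS, called promoter peaks here), in the gene body, and within 50 kb of any TSS were taken from 3 peak lists on the mm10 build.

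Tumours of clear cell sarcoma (CCS), a soft tissue cancer driven by the fusion of EWSR1 to the transcription factor ATF1, were induced in mice. All 16 samples were bulk tumours of genotype EWSR1::ATF1 (EA1), with no muscle or other tissue among them: 4 immunoprecipitated with anti-V5, 4 with antibody to RNAPOL2, 4 with antibody to H3K27ac, and 4 inputs. Anti-V5 recognises the tag on EA1, the RNAPOL2 antibody the phosphorylated polymerase, and H3K27ac marks active promoters and enhancers. The depth of each library is not given in the peak lists.

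The tagged cDNA was carried at the Rosa26 locus and was expressed from that promoter once injected TATCre protein had removed a stop cassette, in limbs of mice 4 weeks old. Which cell type recombined is not given, and a tumour also holds host cells. Of 7 melanocytic and neural crest genes (Mitf, Sox10, Pmel, Mlana, Dct, Tyr, S100b), 3 had an H3K27ac promoter peak and 2 also an RNAPOL2 promoter peak. Mitf (H3K27ac score 372) and Pmel (822) were the ones with both marks, but the peaks of Pmel also lie within 3 kb of a TSS of Cdk2 and cannot be given to Pmel alone. Dct had a V5 promoter peak (score 218) without either mark, and Sox10, Mlana and Tyr had no promoter peak in any list. The 9 genes taken as markers of leukocytes, endothelium and fibroblasts each had an H3K27ac promoter peak (3 of 3 genes in each set), with scores from 49 (Adgre1) to 1024 (Col1a1), and 2 of them, Kdr and Col1a1, had an RNAPOL2 promoter peak. None of these 9 had a V5 promoter peak, and 0 of 3 skeletal muscle genes (Ckm, Acta1, Myod1) had a promoter peak in any list. Over all protein-coding genes, 58.6% had an H3K27ac, 53.5% an RNAPOL2 and 16.6% a V5 promoter peak. With so few genes and no test, none of these gene sets is shown to differ from those shares. The part that host cells had in the peaks of the 10 genes was not tested.

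D-type cyclins bind CDK4 or CDK6 and phosphorylate the retinoblastoma protein, which frees E2F factors to switch on genes of DNA synthesis. Cyclin A2 acts later, in S phase and at entry into mitosis. CDKN1A (p21) inhibits cyclin-dependent kinases and is a classical target of p53, while Cdkn2a encodes both p16INK4a, which inhibits CDK4 and CDK6, and p19ARF, which holds MDM2 back from marking p53 for degradation. ATF1 belongs to the ATF/CREB family, which binds the palindrome TGACGTCA.

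Each antibody has a single list, with 10665 V5 peaks, 20375 RNAPOL2 peaks and 27552 H3K27ac peaks. Each peak carries 1 whole-number score given by the authors, whose scale is not stated, so scores are compared only within a list and are given with their rank, where rank 1 is the highest score and equal scores share the better rank. Median scores were 230 for V5, 246 for RNAPOL2 and 212 for H3K27ac. There are no values per tumour, so no difference between 2 genes could be set against the spread between tumours, and no test was run. The study counts EA1 sites in sets of different sizes, and the V5 list read here is as large as the promoter and distal sites of a smaller set together. A gene described as without a V5 peak has none in this list, which shows neither that it lacked a peak in a larger set nor that it was unbound.

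EA1 was found at the promoters of 5 of the 10 genes: Ccnd2, Ccnd3, Ccna2, Cdkn1a and Myc. Among all protein-coding genes, 16.6% had a V5 promoter peak. All 10 genes had an RNAPOL2 promoter peak and all 10 an H3K27ac promoter peak, against 53.5% and 58.6% of all coding genes. The share with both marks was 52.2% of coding genes, and 30.4% of those genes had a V5 promoter peak as well. The same 5 genes had promoter peaks in all 3 lists, which 15.9% of coding genes had. Ccnd1, Cdk4, Cdkn2a, Trp53 and Mdm2 had both marks and no V5 promoter peak.

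The highest V5 promoter score was 809 at Ccna2, 299 at Cdkn1a, 277 at Ccnd2, 142 at Ccnd3 and 94 at Myc. The median of the 5 was 277, where the 3640 coding genes with a V5 promoter peak had a median of 196 and a middle range from 94 to 496. The order of the genes differed between the lists: by RNAPOL2 the highest was Ccnd2 (3026), followed by Cdkn1a (2772), Myc (2358), Ccnd3 (2119), Mdm2 (1884), Cdk4 (1432), Trp53 (529), Ccna2 (252), and Ccnd1 and Cdkn2a (both 137). By H3K27ac the highest was Mdm2 (4081), followed by Ccnd3 (1969), Myc (1623), Cdk4 (1469), Ccnd2 (1452), Trp53 (1367), Cdkn1a (1252), Cdkn2a (449), Ccnd1 (273) and Ccna2 (160). Ccna2 was thus first of the 10 by V5 and last by H3K27ac. The H3K27ac peaks ranked here for Ccnd3, Cdk4 and Trp53 also lie within 3 kb of a TSS of Taf8, March9 and Wrap53. The highest H3K27ac promoter peak of Ccnd3 without such a neighbour scored 1267, which would place it lower. With 1 score per peak and no replicate spread, neighbours in these orders cannot be shown to differ.

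**Figure D1:**
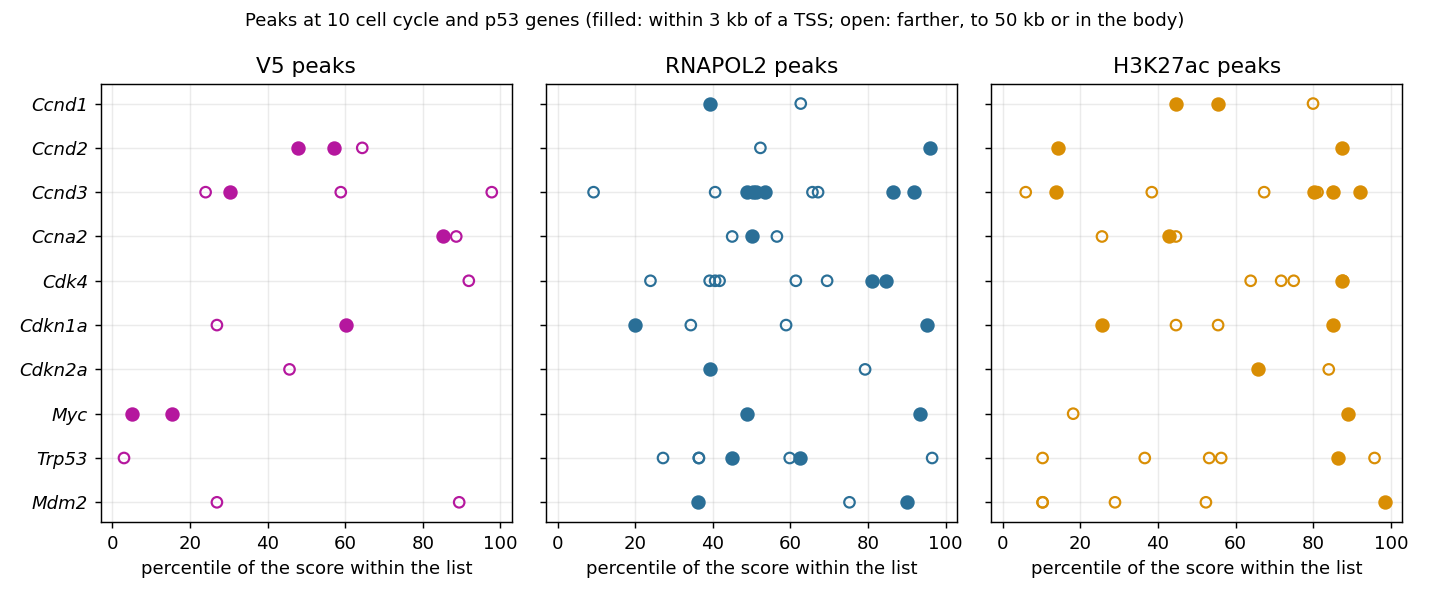
Score of every V5, RNAPOL2 and H3K27ac peak counted for the 10 genes, as its percentile within its list (x axis, 0 to 100; higher is a higher score). Filled points are promoter peaks within 3 kb of a TSS and open points lie farther, up to 50 kb or in the body. The filled V5 point of Ccna2 is at 85.1 and those of Myc are at 5.07 and 15.5, while the highest RNAPOL2 and H3K27ac points of Myc are at 93.4 and 89.1.

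Gene bodies were touched by an RNAPOL2 peak in 9 of the 10 genes, Ccnd1 being the exception, and by an H3K27ac peak in all 10, against 53.7% and 59.1% of coding genes. Each gene with a V5 promoter peak also had a V5 peak that touched its body, and the share of all coding genes with a V5 peak in the body was not computed. All 10 genes had RNAPOL2 and H3K27ac peaks within 50 kb, as did 69.9% and 75.1% of coding genes.

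Within 50 kb of a TSS, 9 of the 10 genes had a V5 peak, against 41.3% of all coding genes, with 18 distinct V5 peaks in all. The number of V5 peaks per gene ran from 0 to 4 with a median of 2, against a median of 0 for all coding genes. Of the 18 peaks, 7 lay at promoters of the 10 genes, 8 at the promoter of another coding gene, and 3 at neither. The share of all V5 peaks at coding promoters was not computed. RNAPOL2 peaks overlapped 14 of the 18, and H3K27ac peaks 17 of the 18. Over all V5 peaks these shares were 42.0% and 73.4%. The 18 were picked by their distance to a TSS and all V5 peaks were not. The 2 sets can thus differ in the share at promoters, and the overlaps are not compared like for like. Neighbouring peaks are not independent of each other, so these counts describe 10 loci and not 18 separate observations.

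**Figure D2:**
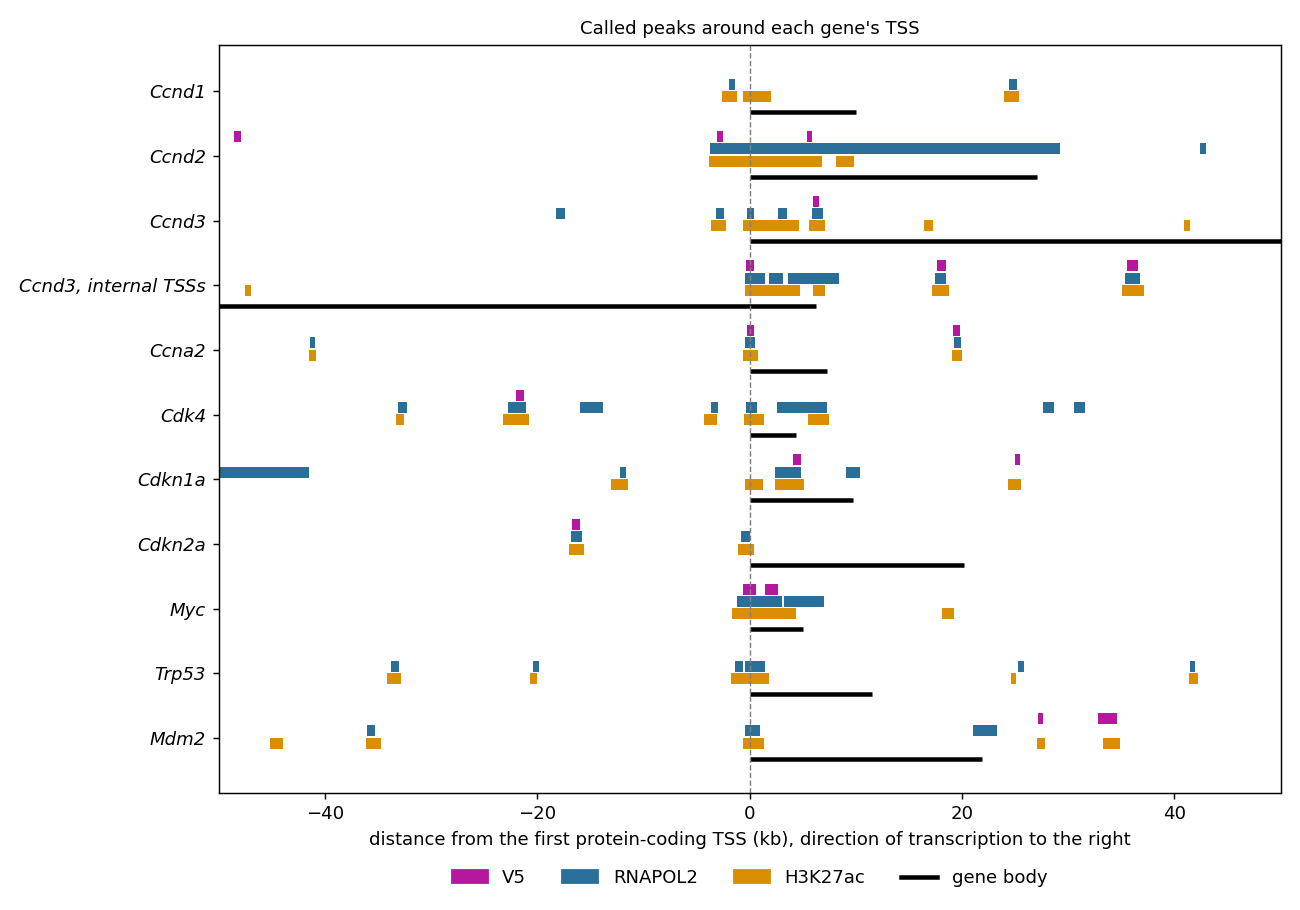
Positions of the called V5, RNAPOL2 and H3K27ac peaks around the first protein-coding TSS of each gene, with distance in kb on the x axis, transcription to the right and the gene body as a black line. Ccnd3 is drawn a second time around its internal coding TSSs. Ccnd1 has no V5 peak in the window, the RNAPOL2 peak of Ccnd2 spans 32.9 kb, and the V5 peak counted for Trp53 lies beyond the right edge.

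Motifs of the ATF/CREB and AP1 kind were searched in the 18 V5 peaks on both strands: the canonical TGACGTCA, the AP1 motif TGAGTCA, whose complement reads TGACTCA, and the variants of the form TGANNTCA other than the canonical one. At least 1 of the 3 was present in 9 of the 18 peaks, and in 59.0% of all V5 peaks. TGACGTCA itself was in 3 of the 18 (8.51% of all V5 peaks), at Ccnd2, at Ccna2 and beside Cdkn2a at Cdkn2b. TGAGTCA was in 3 (26.0%) and the variants in 4 (40.3%), with 1 peak holding both. The core TGACG, which also lies inside TGACGTCA, was in 13 of the 18 (70.9%). Strings of more than 4 TGA or TCA units were in 0 of the 18, where 10.2% of all V5 peaks held one. A matching sequence is not by itself a site of binding.

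Ccnd1, which encodes cyclin D1 (ENSMUSG00000070348.5, chr7:144929931-144939925, minus strand), was the 1 gene of the 10 with no V5 peak within 50 kb. Its nearest V5 peak was 384057 bp away at Ppfia1, with a score of 814 and rank 1571. The RNAPOL2 promoter peak was weak, with a score of 137 and rank 12173 of 20375, lay 1346 bp upstream of the TSS and covered none of the body. It was the narrowest of the 10 genes' widest RNAPOL2 promoter peaks, at 620 bp. No RNAPOL2 peak lay over its TSSs. H3K27ac peaks stood over the TSS (score 171, rank 14934 of 27552) and 1196 bp upstream of it (score 273, rank 12072).

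Ccnd2, which encodes cyclin D2 (ENSMUSG00000000184.12, chr6:127125162-127152193, minus strand), carried the broadest polymerase domain of the 10. A single RNAPOL2 peak ran from 127122971 to 127155910, covered 100% of the body, and scored 3026 (rank 801). At 32.9 kb it ranked 17 by width among the 20375 RNAPOL2 peaks, where the median width was 960 bp. An H3K27ac peak of 10550 bp (score 1452, rank 3468) lay over the start of the gene. Both V5 promoter peaks were inside these 2 domains. One, at 127146301-127146830 (score 218, rank 5394), lay over the TSS of a non-coding transcript inside the gene. The other, at 127154711-127155300 (score 277, rank 4438), began 2518 bp upstream of the first coding TSS and held TGACGTCA 56 bp from its middle. That motif is shown with its surroundings because it is 1 of 2 canonical ATF/CREB motifs in a promoter peak of the 10 genes (GRCm38, the assembly of mm10, chr6:127155017-127155104, plus strand, motif in capitals).
Ccnd2: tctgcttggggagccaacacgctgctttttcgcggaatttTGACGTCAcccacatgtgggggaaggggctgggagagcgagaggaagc

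A further V5 peak (score 338, rank 3690) was 47918 bp upstream of Ccnd2, in an intron of the antisense gene 9330179D12Rik, and overlapped neither an RNAPOL2 nor an H3K27ac peak. It was the 1 peak of the 18 without H3K27ac.

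Ccnd3, which encodes cyclin D3 (ENSMUSG00000034165.16, chr17:47505051-47599691, plus strand), has coding TSSs at both ends of a gene of 94641 bp. The V5 promoter peak (47593091-47593870, score 142, rank 7227) lay over the internal coding TSSs, which begin 88385 bp downstream of the first. There the RNAPOL2 score was 2119 (rank 1614), while over the first TSSs it was 258 (rank 10025). H3K27ac scored 1267 at the internal TSSs and 961 at the first. The strongest H3K27ac promoter peak (1969), and an RNAPOL2 peak of 1581, lay 2191 and 2411 bp upstream of the first TSSs. These 2 peaks and those over the first TSSs (RNAPOL2 258, H3K27ac 961) also stand within 3 kb of a TSS of Taf8, so none of the 4 scores can be given to Ccnd3 alone.

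Another 3 V5 peaks lay within 50 kb of Ccnd3 TSSs. The highest score of all 18, 2999 (rank 235), was 13927 bp downstream of the last TSS, at the promoters of Bysl, Med20 and Gm20517. A peak at Usp49 scored 289. The remaining peak, at 47511011-47511560 in an intron (score 122, rank 7874), overlapped peaks in both other lists (RNAPOL2 147, H3K27ac 490) and held an AP1 motif 11 bp from its middle, shown in capitals (GRCm38, chr17:47511231-47511317, plus strand).
Ccnd3: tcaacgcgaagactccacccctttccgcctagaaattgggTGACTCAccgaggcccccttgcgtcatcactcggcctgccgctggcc

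Ccna2, which encodes cyclin A2 (ENSMUSG00000027715.9, chr3:36564865-36572150, minus strand), had the strongest V5 promoter peak of the 10 genes beside weak marks of activity. The V5 peak at 36571721-36572360 scored 809 (rank 1587), above 83.4% of the best V5 scores of coding genes with a V5 promoter peak. The RNAPOL2 peak at the same place scored 252 and the H3K27ac peak 160, which stood at the 13.0 and 10.3 percentiles of coding genes with such a peak. TGACGTCA was 8 bp from the middle of the V5 peak and 106 bp downstream of the 5′-most coding TSS. The cyclin A2 promoter is known for a cAMP response element, the site that ATF/CREB factors bind. The motif is shown in capitals (GRCm38, chr3:36572033-36572062, plus strand).
Ccna2: tccggagtccgTGACGTCAccagaagcgcc

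A second V5 peak near Ccna2 scored 1016 (rank 1205). It lay 13825 bp away at the promoter of Exosc9, with RNAPOL2 and H3K27ac scores of 382 and 91, and held the variant TGAGTTCA at a distance of 248 bp from its middle.

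Cdk4, the kinase partner of the D-type cyclins (ENSMUSG00000006728.12, chr10:127063534-127067920, plus strand), had no V5 promoter peak. RNAPOL2 scored 1432 (rank 3117) over its TSS, and a second RNAPOL2 peak of 4720 bp (score 1215) ran from the body into Tspan31, so that 56.5% of the body was covered. H3K27ac scored 1469 (rank 3411). The peaks over the Cdk4 TSS also lie within 3 kb of a TSS of March9. One V5 peak was within 50 kb, 21204 bp upstream at the promoters of Eef1akmt3 and Mettl1, with a score of 1276 and rank 867. It held none of the 3 motifs and 2 copies of the core TGACG.

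**Figure D3:**
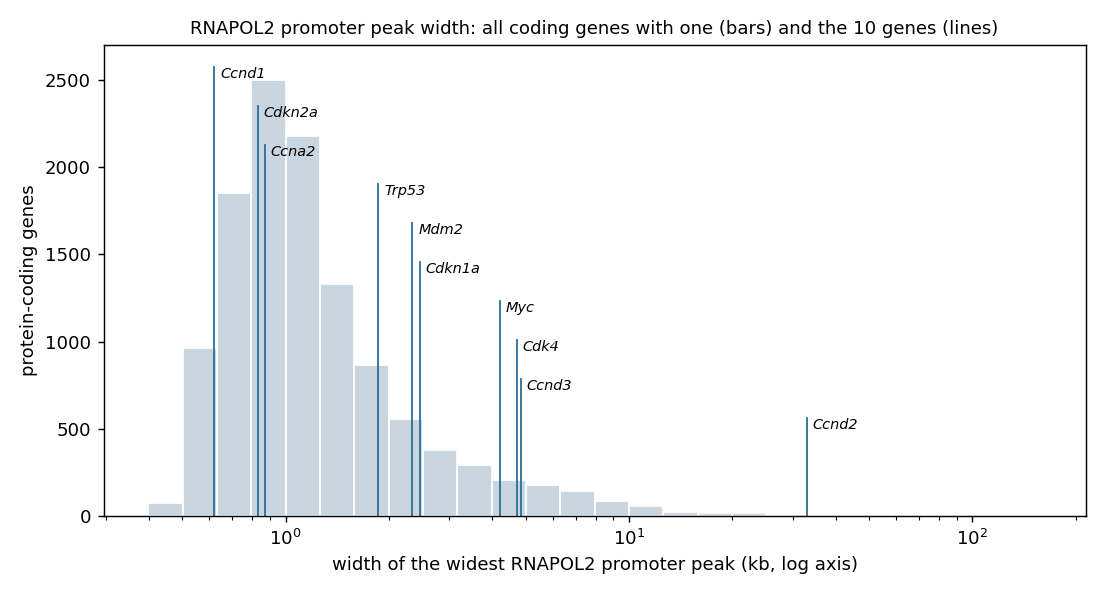
Width of the widest RNAPOL2 promoter peak of each of the 11738 coding genes that have one (bars, count of genes on the y axis, width in kb on a logarithmic x axis), with the 10 genes as labelled lines. Ccnd2 stands at 32.9 kb and Ccnd1 at 0.620 kb, and the median of all the genes is 1040 bp.

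The widest RNAPOL2 promoter peak had a median of 2400 bp over the 10 genes and 1040 bp over all 11738 coding genes with one. Ccnd2 was at the 99.9 percentile of width, Ccnd3 at 95.1, Cdk4 at 94.9 and Myc at 94.1. Ccna2 and Cdkn2a were at 32.5 and 28.0, and Ccnd1 at 7.25. For 3 genes the widest peak was not the one with the highest score. At Cdk4 it ran into Tspan31, 2243 bp from the coding TSSs, and the peak over the TSS was 1030 bp wide. At Ccnd3 it ran past the end of the gene with a score of 235, and the peak of score 2119 was 1880 bp wide. At Mdm2 it lay at the 3′ end (2340 bp, score 111), and the peak over the TSS was 1370 bp wide. Body cover by RNAPOL2 ran from 0% at Ccnd1 to 100% at Ccnd2 with a median of 10.6%, against 3.43% for all these coding genes. Short genes are covered by a peak of a given width more readily than long ones: Myc (95.8% covered) is 4984 bp long and Cdk4 4387 bp, while Ccnd2 is 27032 bp.

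Cdkn1a, which encodes p21 (ENSMUSG00000023067.14, chr17:29090976-29100727, plus strand), was marked more strongly at its second coding TSS group than at its first. The second group begins 2793 bp downstream of the first. RNAPOL2 scored 2772 (rank 967) over the second group, and no RNAPOL2 peak lay over the first. H3K27ac scored 1252 over the second group and 91 over the first. The V5 peak at 29095061-29095780 (score 299, rank 4228) was intronic, 1280 bp downstream of the second group and inside both the RNAPOL2 and the H3K27ac peak. It held 2 copies of the AP1 motif, 189 bp to one side of its middle and 155 bp to the other, and no TGACGTCA. Both copies are shown in capitals, the first from chr17:29095188-29095274 and the second from chr17:29095532-29095618 (GRCm38, plus strand).
Cdkn1a copy 1: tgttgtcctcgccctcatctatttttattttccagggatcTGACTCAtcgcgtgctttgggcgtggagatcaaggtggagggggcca
Cdkn1a copy 2: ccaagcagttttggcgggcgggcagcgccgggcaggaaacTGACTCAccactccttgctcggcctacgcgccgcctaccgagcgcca

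A weaker V5 peak (score 132, rank 7533) was 18051 bp from Cdkn1a at the promoter of Rab44, with an H3K27ac peak (score 171), no RNAPOL2 peak and the variant TGACATCA 6 bp from its middle.

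Cdkn2a (ENSMUSG00000044303.6, chr4:89274471-89294653, minus strand) was marked at the upstream of its 2 promoters. The upstream TSS, from which p19ARF is transcribed, had an RNAPOL2 peak with a score of 137 (rank 12173) and an H3K27ac peak with a score of 449 (rank 9446). The TSS of p16INK4a, 12461 bp downstream, had neither, and the nearest RNAPOL2 and H3K27ac peaks were 12399 and 12089 bp away. The neighbouring inhibitor gene Cdkn2b, which encodes p15INK4b, carried higher scores: RNAPOL2 1134 and H3K27ac 1181. The V5 peak within 50 kb of Cdkn2a was over the Cdkn2b TSS, 15968 bp upstream of Cdkn2a, with a score of 207 (rank 5642) and TGACGTCA 95 bp from its middle (GRCm38, chr4:89311060-89311089, plus strand, motif in capitals).
Cdkn2b: cccacacttggTGACGTCAtgagacaaata

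Myc, a transcription factor of growth and proliferation (ENSMUSG00000022346.15, chr15:61985391-61990374, plus strand), showed the reverse of Ccna2: high RNAPOL2 and H3K27ac with low V5. Its 2 V5 peaks, at 61984781-61985950 and 61986851-61988050, scored 59 (rank 9952 of 10665) and 94 (rank 8778), and each lay over a coding TSS group. Neither held the canonical motif, the AP1 motif or a TGANNTCA variant. RNAPOL2 scored 2358 (rank 1330) in a peak of 4210 bp and 235 in a second peak downstream, and together they covered 95.8% of the body. H3K27ac scored 1623 (rank 2976) in a peak of 6050 bp. No other coding gene had a TSS within 50 kb of a Myc TSS, so these peaks have no coding neighbour to share them with.

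Trp53, which encodes p53 (ENSMUSG00000059552.13, chr11:69580359-69591873, plus strand), had no V5 promoter peak. RNAPOL2 scored 529 (rank 7606) over the coding TSSs and 190 just upstream, and H3K27ac 1367 (rank 3736). These peaks are shared with Wrap53, whose TSS is within 3 kb. The single V5 peak within 50 kb was among the weakest of its list (score 50, rank 10180) and lay at the promoter of Fxr2, 43896 bp from an internal TSS of a non-coding Trp53 transcript and 52186 bp from the coding TSSs. That promoter scored 3159 for RNAPOL2 and 2736 for H3K27ac.

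Mdm2, the ubiquitin ligase that holds p53 levels down (ENSMUSG00000020184.15, chr10:117688875-117710758, minus strand), had the highest H3K27ac score of the 10 genes, 4081 (rank 377), above 96.6% of coding genes with an H3K27ac promoter peak. RNAPOL2 scored 1884 (rank 2022) at the same TSSs, and no V5 promoter peak was called. The V5 peaks near Mdm2 were on the side of its 3′ end, within Cpm, which encodes carboxypeptidase M. One, at 117683081-117683600, scored 132 (rank 7533) and held the variant TGAAATCA. The other, at 117676111-117677990, scored 1079 (rank 1113), lay at a Cpm TSS, 32768 bp from the nearest coding Mdm2 TSS, and overlapped H3K27ac (score 101) but not RNAPOL2.

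The stronger of these peaks held the most motif copies among the 18: 7 copies of TGATGTCA, 1 of TGAAGTCA, and 2 of the AP1 motif, in opposite orientations. The 7 copies of TGATGTCA followed one another at distances of 31 bp (4 times), 29 bp and 58 bp, each within a repeated unit. The repeat is shown in full because its 7 matches sit in 1 short tract and all capitals mark TGATGTCA (GRCm38, chr10:117677294-117677592, plus strand). The first copy lay 288 bp from the middle of the peak, outside its central 200 bp.
Cpm repeat near Mdm2: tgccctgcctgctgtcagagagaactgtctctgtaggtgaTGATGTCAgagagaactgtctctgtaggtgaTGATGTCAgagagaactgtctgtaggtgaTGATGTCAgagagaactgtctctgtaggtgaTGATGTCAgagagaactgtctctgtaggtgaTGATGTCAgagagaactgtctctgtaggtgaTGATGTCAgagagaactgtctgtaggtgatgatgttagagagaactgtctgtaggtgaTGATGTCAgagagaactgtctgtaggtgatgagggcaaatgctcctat

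H3K27ac peaks were also joined where they lay within 12.5 kb of each other. The promoters of Ccnd3, Cdk4 and Cdkn1a lay in joined regions of at least 3 peaks, as did those of 14.3% of coding genes. Ccnd3 had such a region at each end. That over its first TSSs held 4 peaks over 20.9 kb with the intronic V5 peak (score 122). That over its internal TSSs held 3 peaks over 19.2 kb with 2 V5 peaks, the promoter peak (142) and the peak at Bysl (2999). The region at Cdkn1a held 3 peaks over 18.1 kb with 1 V5 peak, and that at Cdk4 3 peaks over 11.8 kb with none.

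Promoter windows of RefSeq (GRCm38.p6, 300 bases, most of them upstream of the TSS) were at hand for 6 of the 10 genes, in 9 windows, and not for Ccnd1, Ccnd2, Ccna2 and Myc. The canonical motif, the AP1 motif and the TGANNTCA variants were in 0 of the 9, where 1.79%, 5.20% and 12.5% of all 32851 windows held them. The core TGACG was in 4 of the 9, at Ccnd3, Cdk4 and Mdm2, against 20.8% of all windows. Absence from these windows says nothing of the rest of the promoter.

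Beyond the 10 genes, 129 further genes of 7 lists (cyclins and inhibitors, RB and E2F, checkpoint kinases, replication, p53 regulators, p53 targets, the MYC network) were read in the same way. A V5 promoter peak was called at 28 of the 129, or 21.7%, all 28 with both marks. Of the 3640 coding genes with a V5 promoter peak, 3484 had both marks as well. RNAPOL2 promoter peaks were called at 112 and H3K27ac promoter peaks at 113, and 109 had both. The share with V5 compares with 16.6% of all coding genes, and among the 109 genes with both marks the share was 25.7%, against 30.4% of all coding genes with both marks. The shares with RNAPOL2 (86.8%) and H3K27ac (87.6%) compare with 53.5% and 58.6%.

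Against 16.6% of all coding genes, the MYC network had V5 promoter peaks at 6 of 13 genes (46.2%). The highest scores were at Zbtb17 (646), Mxi1 (496) and Mnt (415), the last 2 encoding partners of MAX that oppose MYC. The p53 regulators had 6 of 15 (40%), led by the ligase gene Rchy1 (608), the acetyltransferase gene Kat5 (579) and the phosphatase gene Ppm1d (320). The RB and E2F list had 4 of 19 (21.1%), with Tfdp1 (218), Rb1 (196, a peak shared with Lpar6) and Tfdp2 (153). Replication genes had 4 of 18 (22.2%), with Orc1 (793, shared with Prpf38a), Pcna (509) and Orc5 (496). Among genes with both marks, the V5 share was 60% in the MYC network and 42.9% in the p53 regulators. It was 22.2% in RB and E2F and 26.7% in replication, against 30.4% of all coding genes with both marks.

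Of the other cyclins, CDKs and inhibitors, 3 of 21 (14.3%, against 16.6% of coding genes) had a V5 promoter peak: the inhibitor genes Cdkn1b (289), Cdkn2b (207) and Cdkn2c (185). The inhibitor genes Cdkn1c, Cdkn2d and Cdkn3 had none. The p53 targets had 4 of 24 (16.7%), with Plk2 (513), Btg2 (212) and Pmaip1 (132) leading. Plk2 and Btg2 also carried RNAPOL2 scores of 7376 (rank 69) and 8815 (rank 41), higher than any of the 10 genes. The p53 targets Bbc3 (4846), Gadd45a (3916) and Trp53inp1 (3775), without a V5 promoter peak, were also higher. Pmaip1 (448) and Perp (2374), with one, were not. Checkpoint and mitotic kinases had 1 of 19 (5.26%), Wee1, with a score of 43. The lists are small and their members were counted without a test, so no list is set apart from another by these counts.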

How the data were processed

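ChIP-seq was performed on mouse CCS tumours, and 3 deposited peak lists, 1 per antibody, were read. As given per the labels and in the study's methods, the authors aligned reads to mm10 with BWA 0.7.10-r789, removed duplicates, and called peaks with MACS2 2.2.6 against input, with the broad option for H3K27ac, before discarding denylisted regions. The deposited value is a score per peak, a whole number whose scale is not stated. Replicates were averaged for the enrichment tracks, which were not used here. Whether they were pooled for peak calling, and which samples stand behind each list, is not given, and the methods name more V5 and RNAPOL2 samples than the labels.

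Starts were converted to count from 1. Peaks were related to TSSs of GENCODE vM21 (55413 genes, 141730 transcripts) on chromosomes 1 to 19, X and Y, with an overlap of at least 1 bp. TSSs within 1000 bp formed 1 group. A percentile within a list is the share of its peaks with a lower score. Sequence was read with samtools 1.23.1 from GRCm38. Python 3.11.15, numpy 2.4.6 and matplotlib 3.10.9 were used. Functions were tested on simulated data, where 100% of 500 overlaps, 300 motifs and 200 strings came out as made.

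The genes, lists, marker genes and motifs were chosen with earlier results of these data known. Each of the 10 genes is described with its main promoter peaks and all V5 peaks within 50 kb, and other peaks enter the counts. The 3 genes with the highest V5 promoter score are named in each further list, and neighbours are named where their TSS is within 3 kb of a counted V5 peak or of a promoter peak given. Counts of the 10 genes are set beside the share over all coding genes. Alternatives were other windows, score limits, TSS sets and stitching distances.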

Additional observations from a re-analysis of the deposited data

How the results depend on the processing

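Of the recomputed counts, 33 stayed within 1.5 times the value reported and 6 did not. Keeping the upper 50% of peaks by score left V5 promoter peaks at 3 genes (Ccnd2, Ccna2, Cdkn1a, against 7.30% of coding genes) and promoter peaks in all 3 lists at 2 (6.38% of coding genes). V5 promoter peaks were left at 12 of the 129 further genes, beside the same 7.30% of coding genes. Within 50 kb, 9 V5 peaks were left, 5 of them with a motif. The share of the upper 50% of all V5 peaks with a motif was not computed. At 100 kb the V5 peaks numbered 28, and 9 genes had one (56.0% of coding genes). A promoter window of 1 kb took the V5 call from Cdkn1a and the RNAPOL2 call from Ccnd1, leaving 4 and 9 genes (15.2% and 52.2% of coding genes), and moved the V5 score of Ccnd2 to 218. Counting only TSSs of coding transcripts left 8 genes with a V5 peak within 50 kb (39.3% of coding genes), 20 kb left 7 (27.4%), and the upper 50% of peaks left 6 (24.4%). Stitching at 5 and 20 kb, chosen after the data were seen, gave 2 and 4 genes (4.84% and 22.2% of coding genes). Leaving out replicates could not be tried, and no paired analysis was possible because each antibody has 1 list with no values per sample. The methods name 1 approximate depth for all libraries and the lists hold no reads, so no limit of detection can be given for genes without a peak.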
